A study of Mus musculus with 28 samples.

Results

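Crebbp and Ep300 encode CBP and p300, the paralogous transcriptional coactivators and lysine acetyltransferases. They were described as 2 of the 19938 named genes on the array, chosen by symbol alone and not by any measured value. Each symbol was carried by 1 transcript cluster (10437332 for Crebbp, 10425527 for Ep300), and 0 clusters listed either symbol among several.

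CBP and p300 do not bind DNA by sequence. They are recruited by transcription factors, among them CREB once it is phosphorylated, and they acetylate histones and other proteins near the genes to which they are brought. In the hippocampus CBP is known for its part in activity-driven transcription and long-term memory, and loss of 1 copy of CREBBP or EP300 in humans causes Rubinstein-Taybi syndrome, for which cbp+/- mice are used as a model. Histone deacetylases, the enzymes blocked by trichostatin A (TSA), remove the acetyl groups.

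The study measured hippocampal RNA of female C57/DBA F1 hybrid mice aged 3 months on 28 Affymetrix Mouse Gene 1.0 ST arrays. Wild-type mice and littermates labelled cbp+/-, which have 1 disrupted copy of the CBP gene, stayed in a standard cage or spent 1 h alone in a new box that held toys and tubes (novelty). They received TSA by intraperitoneal injection at 2.4 mg/kg or its vehicle, DMSO in saline, and mice given TSA were sampled 75 min later, with novelty starting 15 min after the injection where both were combined. Per genotype there were 5 cage control arrays (replicates 1 and 2 from naive mice, replicates 3 to 5 from vehicle-injected mice), 3 arrays of cage mice given TSA, 3 of novelty with vehicle and 3 of novelty with TSA. An array was made from the RNA of 3 to 4 mice, which makes each replicate a pool, and the control arrays are shared with a second data set that was run in parallel. The exons that the disrupted allele lacks, and the places of the array's probes in Crebbp, were not given in the sources used here. A probe outside a disrupted stretch would still read the transcript, so the Crebbp value does not check the genotype labels, and directions below are those of arrays labelled cbp+/-.

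The sequence before each start site is shown because it is the stretch from which each transcript is started. Its part in the array values below was not tested. The 250 bases before the start site, from RefSeq's table on GRCm38.p6 (1 entry per gene), lie at 16:4213405-4213654 on the minus strand for Crebbp and at 15:81585964-81586213 on the plus strand for Ep300. Capitals mark the GC box letters GGGCGG, found on either strand.
Crebbp: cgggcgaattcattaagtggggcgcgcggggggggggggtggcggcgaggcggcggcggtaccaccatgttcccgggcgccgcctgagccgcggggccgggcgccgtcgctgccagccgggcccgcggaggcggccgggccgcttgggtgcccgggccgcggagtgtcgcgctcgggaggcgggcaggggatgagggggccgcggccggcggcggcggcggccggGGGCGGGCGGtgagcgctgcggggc
Ep300: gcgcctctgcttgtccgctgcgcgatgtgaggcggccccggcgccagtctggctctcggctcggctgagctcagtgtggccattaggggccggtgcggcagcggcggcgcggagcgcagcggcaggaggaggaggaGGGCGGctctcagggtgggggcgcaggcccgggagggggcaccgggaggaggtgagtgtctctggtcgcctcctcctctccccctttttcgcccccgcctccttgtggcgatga
Both stretches are rich in G and C. Crebbp has 84.0% G and C and 44 CpG dinucleotides, and Ep300 has 73.2% and 25, against medians of 52% and 6 over 27025 promoters of the same length. Crebbp held 2 GC box matches that overlap each other and Ep300 held 1, and 32.9% of all promoters held at least 1. The letters TGACGTCA (the full cAMP response element to which CREB binds), TGACG (its shorter form, which the full element contains) and TATAAA were found in neither stretch on either strand, and 1.62%, 17.9% and 13.0% of all promoters held them. A missing match says only that these letters are not in this window.

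Values are log2 expression values, 1 per gene and array. Array medians ran from 5.46 to 5.63, so both transcripts lay above the middle of every array. Their 2 values come from different probes and are not compared as amounts.

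Crebbp in wild-type cage controls read 9.20 and 9.27 in the naive arrays and 9.37, 9.55 and 9.06 in the vehicle arrays. Wild-type arrays read 9.19, 9.42 and 8.68 after TSA in the cage, 9.70, 9.40 and 8.81 after novelty, and 9.51, 9.48 and 8.80 after novelty with TSA. In every one of these 4 groups the last array was the lowest, and the groups overlapped throughout. Arrays labelled cbp+/- read 9.35 and 9.26 (naive) and 9.46, 9.77 and 9.16 (vehicle) in the cage. They read 9.75, 9.74 and 9.06 after TSA in the cage, 9.38, 9.59 and 9.38 after novelty, and 9.70, 9.66 and 8.97 after novelty with TSA. No group labelled cbp+/- lay apart from its wild-type counterpart. In order of their means the 8 groups ran from 9.10 ± 0.38 (SD, n = 3; wild type, cage TSA) through 9.26 ± 0.40 (wild type, novelty with TSA), 9.29 ± 0.18 (n = 5; wild-type controls), 9.30 ± 0.45 (wild type, novelty), 9.40 ± 0.23 (n = 5; cbp+/- controls), 9.44 ± 0.41 (cbp+/-, novelty with TSA) and 9.45 ± 0.12 (cbp+/-, novelty) to 9.52 ± 0.40 (cbp+/-, cage TSA). The 4 wild-type means were the 4 lowest, and no neighbours in this order differed by as much as either group's SD.

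Ep300 in wild-type cage controls read 8.19 and 8.27 (naive) and 8.46, 8.37 and 7.83 (vehicle). Wild-type arrays read 8.42, 8.33 and 7.78 after TSA in the cage, 8.84, 8.52 and 7.81 after novelty, and 8.62, 8.31 and 7.71 after novelty with TSA. The pattern within each group resembled that of Crebbp, with the last array lowest. Arrays labelled cbp+/- read 8.09 and 8.15 (naive) and 8.50, 8.57 and 7.94 (vehicle) in the cage. They read 8.77, 8.57 and 7.91 after TSA in the cage, 8.48, 8.45 and 8.22 after novelty, and 8.75, 8.52 and 7.82 after novelty with TSA. Group means lay between 8.18 ± 0.35 (n = 3; wild type, cage TSA) and 8.42 ± 0.45 (n = 3; cbp+/-, cage TSA), so all 8 were closer together than the SD of either of these groups.

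**Figure D1:**
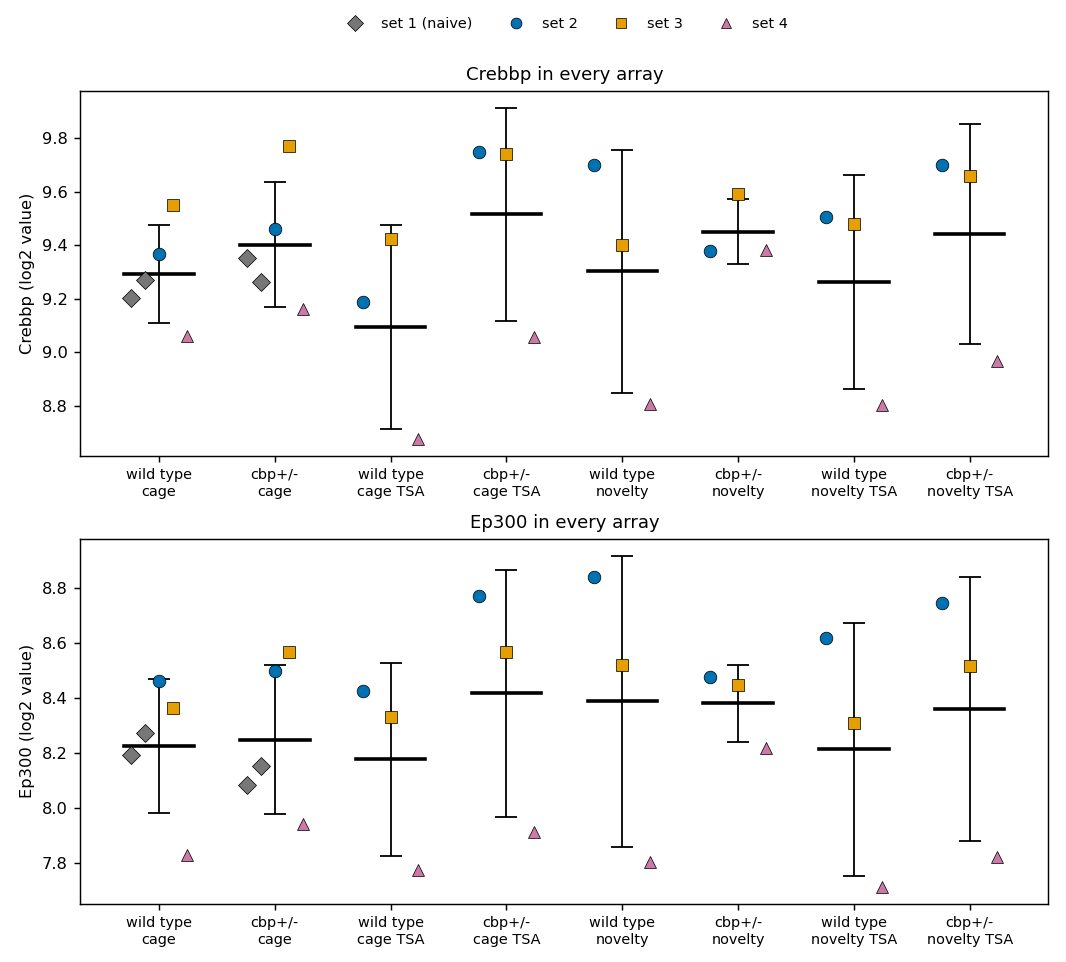
Log2 value (vertical axis) of Crebbp (top) and Ep300 (bottom) in each of the 28 arrays by group; the thick line is the group mean, the error bar 1 SD, and colour and shape give the array set. Triangles (set 4) are the lowest arrays of every group for Ep300 and of every group but cbp+/- novelty for Crebbp, and the groups of the 2 genotypes overlap.

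The spread inside the groups was not random between arrays. Earlier work on these data had found that arrays deviate together in sets, and no label names such sets: set 1 holds the 4 naive arrays, and sets 2, 3 and 4 hold vehicle controls 3, 4 and 5 with replicates 1, 2 and 3 of the other groups, 8 arrays each. Set means were 9.27, 9.51, 9.58 and 8.99 for Crebbp and 8.18, 8.60, 8.45 and 7.88 for Ep300. Every set 4 array was below every set 2 and set 3 array for Ep300, which held for 5.24% of all genes, whereas for Crebbp the sets overlapped. Array sets took 68.1% of the variance of Crebbp and 84.3% of that of Ep300, against a median of 43.8% over all genes. The 8 groups took 16.0% and 7.09%, and genotype alone 11.4% and 1.99%. Group tests without the set were therefore wide for these genes: the residual SD was 0.30 for Crebbp and 0.34 for Ep300 (median gene 0.18), and 0.14 and 0.13 (median gene 0.12) with array set as a block. What the sets are was not tested.

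The comparison of genotypes asks how the transcript of the disrupted gene, and that of its paralogue, stood in mice labelled cbp+/-. Crebbp was not lower in them. Over all 4 conditions it was 0.21 ± 0.12 log2 higher (SE; averages of the 4 group means, 9.45 and 9.24, with 14 arrays per genotype), which is 1.16-fold with a 95% interval of 0.98 to 1.37, and limma's adjusted p was 1. The interval of the log2 difference, -0.03 to 0.46, did not reach -1, the difference that a halved signal would give. This concerns the array signal only. Since the places of the probes were not given, it does not say whether intact Crebbp transcript was halved. Ep300 was 0.10 ± 0.13 log2 higher (1.07-fold, adjusted p = 1). Neither gene was called, and neither was any other, so the share of all genes called was 0%, while 518 genes had an unadjusted p under 0.05.

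Same-numbered arrays of the 2 genotypes within a condition always lay in the same array set, so they can be compared pair by pair. The naive pairs rest on their numbers alone, since set 1 holds 2 naive arrays per genotype. Crebbp was higher in the array labelled cbp+/- in 12 of 14 such pairs, by 0.20 ± 0.23 (SD over pairs), with a lowest pair of -0.32, a median of 0.18 and a highest of 0.58. At least 12 of 14 pairs were higher in 1.22% of all genes. In either direction, higher or lower, at least 12 of 14 pairs went the same way in 3.26%. The 2 exceptions were a naive pair at -0.01 and the set 2 pair of novelty with vehicle at -0.32. Ep300 was higher in 10 of 14 pairs, by 0.09 ± 0.20 (SD), and 10.6% of all genes reached that count. It was lower in both naive pairs and in the set 2 and set 3 pairs of novelty with vehicle. With array set as a block the Crebbp difference had an SE of 0.05 and an interval of 0.10 to 0.33 and ranked 168 of 19938 genes by p, but missed the threshold in limma (adjusted p = 0.066). In that fit 0.662% of all genes were called, and the Ep300 difference had an SE of 0.05 (adjusted p = 0.42). With each of the 28 arrays left out in turn, a step chosen after seeing the data, the blocked Crebbp value passed the threshold in 2 cases only. These left out replicate 1 of novelty with vehicle, either of wild type (0.25, adjusted p = 0.0196 in limma) or of cbp+/- (0.25, adjusted p = 0.0255). Those 2 arrays form the pair at -0.32, so leaving out either one raises the difference. Elsewhere the adjusted p in limma rose to as much as 0.152.

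**Figure D2:**
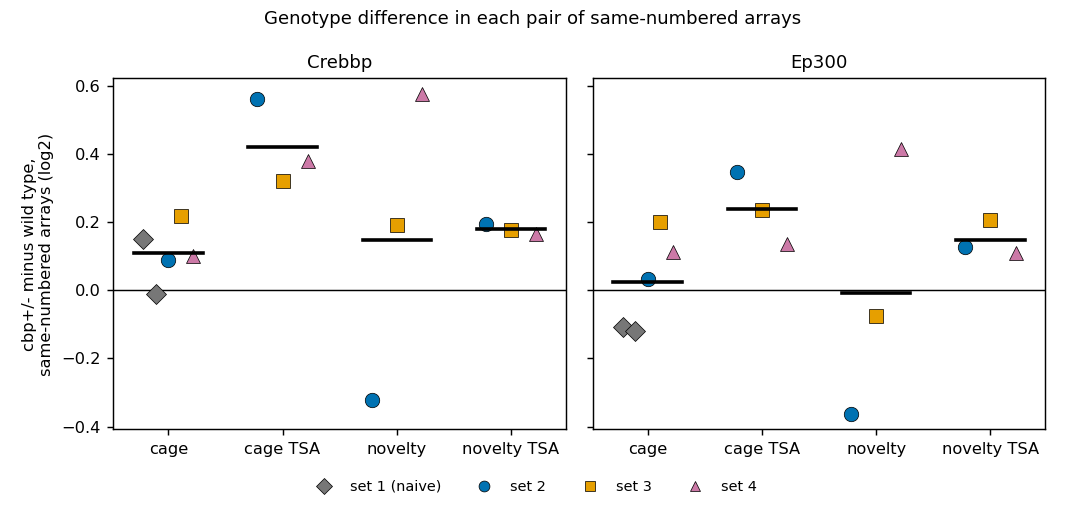
Log2 difference, cbp+/- minus wild type, in each of the 14 pairs of same-numbered arrays by condition (horizontal axis), for Crebbp (left) and Ep300 (right); thick lines are condition means and colour and shape give the array set. For Crebbp 12 of 14 points lie above 0, with the pairs after novelty and vehicle spread from -0.32 to 0.58.

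By condition, the Crebbp difference was 0.11 ± 0.19 (SE) in cage controls, 0.42 ± 0.25 after TSA in the cage, 0.15 ± 0.25 after novelty and 0.18 ± 0.25 after novelty with TSA. The 3 pairs after TSA in the cage differed by 0.56, 0.32 and 0.38, and those after novelty with TSA by 0.19, 0.18 and 0.17. Pairs after novelty with vehicle ran from -0.32 to 0.58, the widest spread of the 4 conditions. The difference after TSA in the cage ranked 34 of 19938 genes with array set as a block (interval 0.18 to 0.66) and was not called in limma (adjusted p = 0.63), nor was any other gene (0% of genes). All 3 of those pairs were positive in 10.7% of all genes. Ep300 differed by 0.02 ± 0.22, 0.24 ± 0.28, -0.01 ± 0.28 and 0.15 ± 0.28 in the same conditions. The genotype differences with and without TSA were compared by the interaction, which was 0.17 ± 0.23 for Crebbp and 0.19 ± 0.26 for Ep300, neither called (limma, adjusted p = 1 for both).

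The signal of Crebbp was also read against that of Ep300 within the same array, which removes only a deviation that both share in equal size. The Crebbp value minus the Ep300 value was 1.00 ± 0.14 (SD, n = 14) in wild type and 1.11 ± 0.11 (n = 14) in cbp+/- arrays. The differences ran from 0.76 to 1.23 in wild type, with a median of 1.00, and from 0.90 to 1.27 in cbp+/-, with a median of 1.14, so the genotypes overlapped. They still went with the array set, from 0.76 to 0.98 in set 2, 0.88 to 1.20 in set 3 and 0.90 to 1.23 in set 4. The permutation within condition treated naive and vehicle controls as separate conditions and weighted each condition by its number of arrays. It does not otherwise take the set into account, whereas the arrays of a same-numbered pair share it. The genotypes differed by 0.11 (two-sided permutation within condition, p = 0.0349), and over the same-numbered pairs by the same 0.11 ± 0.10 (SD), with 12 of 14 pairs positive (two-sided exact sign flip, p = 0.000854). These p-values are for 1 chosen difference and are not adjusted. How often the difference between other genes reaches 12 of 14 pairs was not counted, so no share over all genes can be set beside it. Without the 4 naive arrays the permutation gave 0.097 (p = 0.0905). It also missed 0.05 when any 1 of 10 arrays was left out: replicate 3 of the wild-type controls (0.094), replicate 1 of wild type after TSA in the cage (0.092), after novelty (0.10) or after novelty with TSA (0.097), or, of cbp+/-, control replicates 1 (0.098) and 5 (0.10), cage TSA replicates 2 (0.10) and 3 (0.10) and novelty replicates 2 (0.10) and 3 (0.099). The paired test, run in the same way after seeing the data, gave 0.097 without the naive pairs (10 of 12 pairs positive, exact sign flip p = 0.00342) and 0.097 to 0.12 with each of the 14 pairs left out (exact sign flip p from 0.000488 to 0.00171). Since different probes read the 2 genes, only the change in this difference has a meaning, and it does not say which of them moved.

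Some cell type markers also differed between genotypes, and in bulk tissue fewer cells of a type and less RNA per cell cannot be told apart. The hippocampal markers were present: the median values were 12.1 for Camk2a (excitatory neurons), 8.26 for Prox1 (dentate granule neurons) and 8.10 for Wfs1 (CA1 pyramidal neurons). Of 5 neuronal, 4 dentate, 4 CA1, 5 interneuron, 5 astrocyte, 4 oligodendrocyte, 5 microglia, 9 choroid plexus, 6 meningeal and 4 endothelial markers, 0 were called without the block. With it, Wfs1 (-0.41 ± 0.05), Mpped1 (-0.17 ± 0.04), Tdo2 (-0.29 ± 0.07), Gfap (-0.28 ± 0.06) and Dcn (-0.31 ± 0.04; CA1, CA1, dentate, astrocyte and meningeal markers in this order) fell in cbp+/- arrays, and 0 of these markers rose, while 0.662% of all genes were called. Tdo2 read 3.61 to 4.76 over the arrays, below every array median, and was the only 1 of 4 dentate markers called. Of the 6 meningeal markers 4 were higher in cbp+/- arrays, with a median of 0.05. Their part in the Crebbp difference was not tested. Choroid plexus markers, which mark tissue carried over from the ventricle, were raised by 1.57 to 2.04 log2 in 3 arrays of set 2 (cbp+/- controls replicate 3, cbp+/- cage TSA replicate 1 and wild-type novelty with TSA replicate 1). These 3 passed a limit of 0.9 in mean deviation from the markers' medians. Next below it were cbp+/- novelty with TSA replicate 2 (0.81), wild-type control replicate 1 (0.61) and wild-type novelty replicate 1 (0.56), which were kept. Without the 3 arrays over the limit the genotype difference of Crebbp was 0.21 ± 0.13, and that of Ep300 was 0.09 ± 0.14. That fit had no block, so leaving out these arrays of set 2 changed the share of each set in a group. The part of the carried-over tissue in the genotype differences was not tested.

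The TSA comparisons ask whether blocking deacetylases altered the transcripts of the acetyltransferases. Averaged over genotype and housing, Crebbp differed by -0.03 ± 0.12 (SE, 95% interval -0.27 to 0.21) and Ep300 by -0.02 ± 0.13 (-0.29 to 0.25), neither called in limma (adjusted p = 0.99 and 1), while 0.662% of all genes were. With array set as a block the differences were -0.06 ± 0.06 (-0.18 to 0.06) and -0.04 ± 0.05 (-0.15 to 0.07), against 4.51% of genes called. Within sets, the TSA array was above its counterpart in 4 of 12 comparisons for Crebbp and in 4 of 12 for Ep300. In set 4 it was below in 4 of 4 for both genes, and in sets 2 and 3 in 2 of 4 each. The 12 comparisons share arrays of the same sets and are not independent of one another.

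By background, the TSA difference of Crebbp was -0.20 ± 0.22 in wild type in the cage, 0.11 ± 0.22 in cbp+/- in the cage, -0.04 ± 0.25 in wild type with novelty and -0.01 ± 0.25 in cbp+/- with novelty. Wild-type cage arrays given TSA were below the vehicle control of their set in 3 of 3 sets, by 0.18, 0.13 and 0.39. That pattern was found in 10.5% of all genes, and the blocked difference of -0.25 ± 0.11 was not called in limma (adjusted p = 0.55), against 0.0401% of genes called. For Ep300 the differences were -0.05 ± 0.25, 0.17 ± 0.25, -0.17 ± 0.28 and -0.02 ± 0.28. The wild-type novelty arrays given TSA lay below their counterparts in 3 of 3 sets for Ep300, by 0.17 on average, which was not called (adjusted p = 0.54 in limma with the block, against 0.0702% of genes called). That pattern was found in 13.8% of all genes. The wild-type cage arrays given TSA were also below in 3 of 3 sets for Ep300, by 0.042 on average, a pattern found in 10.5% of all genes. Both patterns together, in the cage and with novelty, were found in 2.6% of all genes.

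Neither coactivator transcript passed the test after novelty. Averaged over genotype and drug, Crebbp differed by 0.04 ± 0.12 (SE, 95% interval -0.20 to 0.28) and Ep300 by 0.07 ± 0.13 (-0.20 to 0.34), neither called in limma (adjusted p = 1 for both), against 0.191% of all genes. With array set as a block the values were 0.01 ± 0.06 (-0.10 to 0.13) and 0.05 ± 0.05 (-0.06 to 0.16), against 0.476% of genes called. Novelty arrays were above their cage counterparts in 5 of 12 comparisons within sets for Crebbp and in 4 of 12 for Ep300. Without TSA the novelty difference of Crebbp was 0.01 ± 0.22 in wild-type arrays and 0.05 ± 0.22 in those labelled cbp+/-, and that of Ep300 was 0.16 ± 0.25 and 0.13 ± 0.25. With TSA it was 0.17 ± 0.25 and -0.07 ± 0.25 for Crebbp, and 0.04 ± 0.28 and -0.06 ± 0.28 for Ep300. The blocked 95% intervals of the average novelty difference reached at most 0.16 log2 from 0 for both genes.

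**Figure D3:**
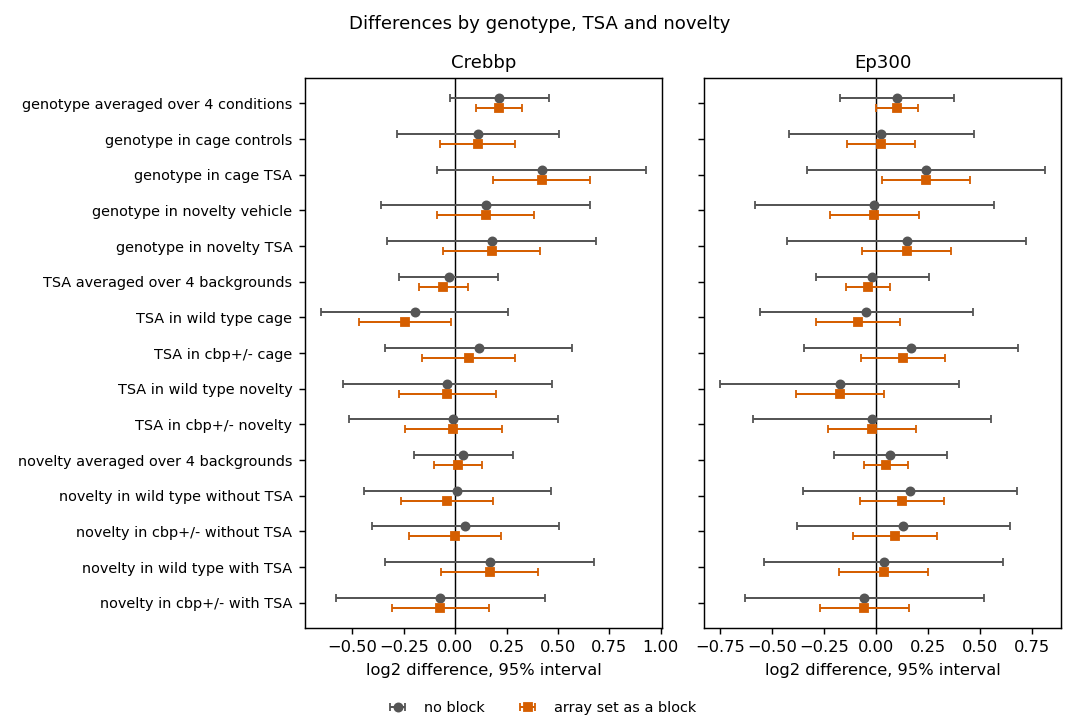
Log2 difference (horizontal axis, bars are 95% intervals) of Crebbp (left) and Ep300 (right) in each comparison by genotype, TSA and novelty, from the fit without a block (grey circles) and with array set as a block (orange squares). Every interval without the block includes 0; with it the average genotype interval of Crebbp (0.10 to 0.33), the genotype intervals of both genes after TSA in the cage and that of Crebbp for TSA in the wild-type cage do not.

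Interactions of genotype with novelty were -0.10 ± 0.23 for Crebbp and -0.06 ± 0.26 for Ep300, and those of TSA with novelty 0.02 ± 0.23 and -0.16 ± 0.26. None was called in limma, in which 0% of genes were called in these comparisons. Vehicle-injected controls differed from naive ones by 0.12 ± 0.20 for Crebbp and 0.10 ± 0.23 for Ep300, neither called, although 2.41% of all genes were. All naive arrays form set 1, so injection and array set cannot be told apart.

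Crebbp and Ep300 rose and fell together from array to array. Within set 2 they correlated at r = 0.945 (rho = 0.929, exact permutation p = 0.000446, adjusted over the 3 sets 0.00134), within set 3 at 0.667 (rho = 0.595, p = 0.0823, adjusted 0.0823) and within set 4 at 0.892 (rho = 0.952, p = 0.00134, adjusted 0.00201), over 8 arrays each. Exact p-values for rho were 0.00223, 0.132 and 0.00114. Without the 2 arrays farthest from the median of Crebbp, r was 0.968, 0.957 and 0.866. The 8 arrays of a set differ in genotype, housing and drug and share whatever the set shares.

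**Figure D4:**
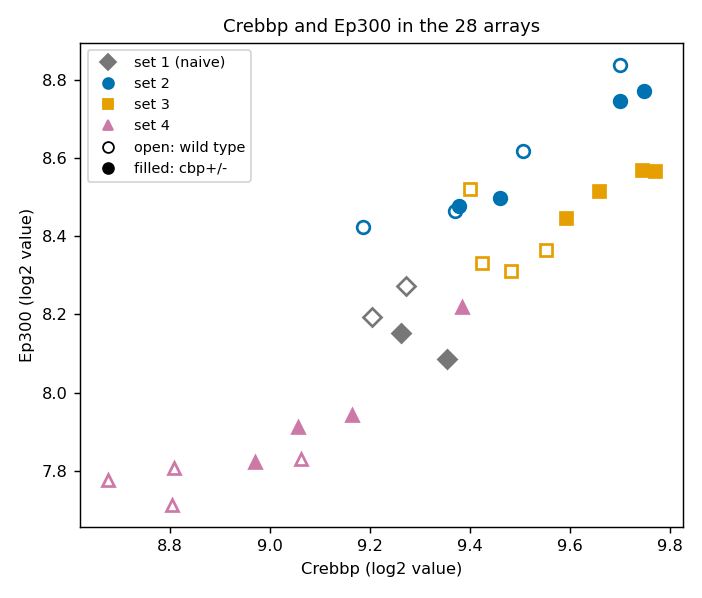
Crebbp (horizontal axis) against Ep300 (vertical axis), log2 values of the 28 arrays, with colour and shape by array set, open symbols for wild type and filled for cbp+/-. Set 4 lies at the lower left for both genes, and within sets 2 and 4 the points rise together (r = 0.945 and 0.892).

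Set against every other gene over the 28 arrays, Crebbp was most like Kat6a (r = 0.913), another histone acetyltransferase, then Ep300 (0.907), Nf1 (0.902), Tnrc6c (0.90) and Ralgapb (0.899). The gene most like Ep300 was Lonrf2 (0.966), then Tulp4, Slc4a4, Atp6v0a1 and Prkca (0.950 to 0.944), with Crebbp at rank 84. These coefficients include the difference between array sets, which many genes share. With the means of array set and group removed, over the 24 arrays of sets 2 to 4, each of the pair was the gene most like the other, at r = 0.934, out of 19937 other genes. The next were Birc6 (0.885), Cbll1, Mast2 and Med13 (0.872) for Crebbp, and Gramd1b (0.887), Wasl, Arhgap21 and Cacna1c (0.872) for Ep300. The median over all genes was -0.02 for Crebbp and -0.04 for Ep300. These are descriptions over arrays that share sets, and say nothing of shared function.

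The other genes of the same machinery were counted in lists that were chosen with earlier results known. Of 15 other acetyltransferases, 0 were called by genotype in either fit, with a median of 0.05 log2 and 11 of 15 higher in cbp+/- arrays, against 46.1% of all genes. Taf1, a TFIID subunit, had the smallest p among them (0.17 ± 0.05 with the block). The paralogues Kat2a and Kat2b (GCN5 and PCAF) differed by 0.05 ± 0.04 and 0.08 ± 0.05 with the block. After TSA 0 were called without the block, and with it Kat6b (-0.19 ± 0.05, adjusted p = 0.0142 in limma) and Kat5, the TIP60 acetyltransferase (-0.18 ± 0.05, 0.0201), fell, which is 2 of 15 against 4.51% of all genes called. Novelty called 0 of 15 in either fit.

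Of the 6 genes of CREB and its CRTC coactivators, 0 were called in any of the 3 averaged comparisons in either fit. Creb1, the factor that recruits CBP after phosphorylation, differed by 0.01 ± 0.04 between genotypes, by -0.10 ± 0.04 after TSA and by 0.14 ± 0.04 after novelty with the block (limma, adjusted p = 0.96, 0.20 and 0.21). Of 28 measured transcription factors and regulators that bind CBP or p300 (30 listed), 0 were called by genotype or novelty in either fit. With the block, Smad3 (0.17 ± 0.04) and Stat3 (0.17 ± 0.04), both signal-driven transcription factors, rose after TSA, 2 of 28 against 4.51% of all genes called.

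Of the 11 histone deacetylase genes, 0 were called by genotype or novelty. Hdac1, a class I enzyme that TSA inhibits, rose after TSA with the block by 0.23 ± 0.04 (adjusted p = 0.00105 in limma; 1 of 11 against 4.51% of all genes) and was 0.23 ± 0.07 without it (adjusted p = 0.15). Of 17 measured acetyl-lysine readers (18 listed), whose bromodomains bind the mark that CBP and p300 write, Brd8 fell after TSA without the block (-0.19 ± 0.04), 1 of 17 against 0.662% of all genes called. With the block Brpf3 (-0.20 ± 0.05), Atad2b (-0.27 ± 0.06), Brd8 (-0.16 ± 0.04) and Pbrm1 (-0.16 ± 0.04) fell and 0 rose, 4 of 17 against 4.51% of all genes called.

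The activity-regulated CREB targets were the only one of these lists with genes called by novelty. Of 24, 12 rose without the block and 18 with it, and 0 fell, with medians of 0.50 and 0.49, against 0.191% and 0.476% of all genes called. Npas4 rose by 1.73 ± 0.12, Fos by 1.42 ± 0.11, Egr2 by 1.49 ± 0.15 and Arc by 1.36 ± 0.17 without the block, all of them activity-induced genes, in arrays in which Crebbp and Ep300 averaged within 0.07 of their cage values. By genotype 0 of 24 were called without the block. With it Vgf, a secreted neuropeptide precursor, fell by 0.23 ± 0.05 (adjusted p = 0.0204 in limma) and Dusp1, a MAP kinase phosphatase, by 0.44 ± 0.10 (adjusted p = 0.0279), which is 2 of 24 against 0.662% of all genes called. In cbp+/- arrays 3 of 24 were higher, with a median of -0.08, against 46.1% of all genes higher. After TSA, Arc fell with the block (-0.22 ± 0.06, adjusted p = 0.0494 in limma), 1 of 24 against 4.51% of all genes called.

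**Figure D5:**
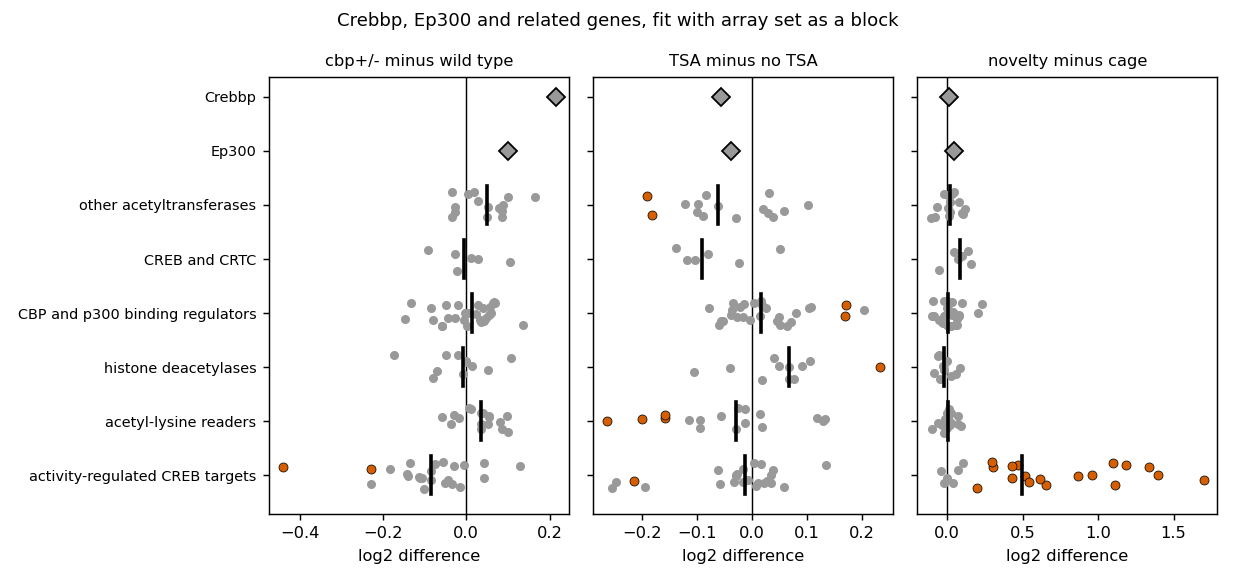
Log2 difference (horizontal axis) by genotype (left), TSA (middle) and novelty (right), each averaged over the other factors with array set as a block, for Crebbp, Ep300 and each gene of 6 related lists (vertical axis); orange points have an adjusted p under 0.05, black lines are list medians, and vertical scatter within a row carries no value. Neither coactivator is orange in any panel, and 18 of 24 CREB targets are in the novelty panel.

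The genes next to each coactivator on its chromosome were measured as well. Of the 10 nearest measured genes on each side of Crebbp, 0 of 20 were called by genotype in either fit, with a median of -0.01 and 8 higher in cbp+/- arrays, against 46.1% of all genes higher. Its immediate neighbours Trap1 and Adcy9 differed by -0.04 ± 0.04 each with the block. Around Ep300, 0 of 20 were called without the block and 1 with it, Csdc2 (-0.29 ± 0.06, adjusted p = 0.0279 in limma), against 0.662% of all genes called. The median around Ep300 was 0.00 and 10 of 20 were higher.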

How the data were processed

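The values are log2 expression values deposited by the authors, 1 per transcript cluster and array. The arrays were processed in GeneSpring GX 11, per the labels' protocols, and by RMA, per the submitters' processing notes; their build and the RMA version were not given in the sources used here. Such normalization hides a shift shared by most genes. Of 35556 clusters, 21789 had 1 symbol, and keeping the cluster with the highest mean left 19938 genes. Groups came from the sample titles.

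Comparisons used limma 3.58.1 (R 4.3.3) over all 28 arrays with 8 group means, two-sided, with Benjamini-Hochberg adjustment over all genes and a threshold of 0.05. Array set, or the number in the labels (a replicate block), was added as a block in alternatives. Same-numbered arrays of the 2 genotypes within a condition deviated together from their group means (r from 0.44 to 0.70 over all genes, median 0.63, 14 pairs). Same-numbered arrays across the TSA and novelty groups did so too (0.52 to 0.80, median 0.69, 45 pairs). The numbers therefore match arrays by set, and no closer tie within a genotype pair was shown. The numbers do not match controls with TSA or novelty arrays (r from -0.58 to 0.23, 36 pairs), which followed the array set (0.41 to 0.74). Since the sets came from earlier work that found arrays of these data deviating together, these correlations are no separate support for them. Permutations (100000, or exact) used SciPy 1.17.1. The fit was tested on simulated data. The named genes were both coactivators and, per related list, up to 3 members with the smallest p in each averaged comparison, with any called members of a list where 5 or fewer were called, except that Kat2a, Kat2b, Creb1 and the immediate neighbours were named for their role. The members, array sets and lists were chosen with earlier results of these data known. The number of arrays limits the precision. The tests set each difference against the spread between arrays, each of them 1 pool, and without the block that spread includes the array sets.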

Additional observations from a re-analysis of the deposited data

Results flagged for a closer look

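Under TSA, novelty went with opposite signs in the 2 genotypes for Crebbp: the novelty array was above its cage counterpart in 3 of 3 array sets in wild type (mean 0.17) and below it in 3 of 3 in cbp+/- (mean -0.07), a gap of 0.24 log2. That difference was not itself tested. Opposite signs in every set of both genotypes, in either order, were found in 2.89% of all genes. Of the 3 arrays with raised choroid plexus markers, 2 enter here, cbp+/- cage TSA replicate 1 and wild-type novelty with TSA replicate 1, and their part was not tested. A further array here, cbp+/- novelty with TSA replicate 2, deviated by 0.81, under the limit of 0.9, and was kept. Without the 3 arrays, novelty in cbp+/- with TSA was 0.043 in the fit without a block. There the cage arrays left were of sets 3 and 4, and the novelty arrays of sets 2 to 4. The pairs of sets 3 and 4 themselves were unchanged, at -0.085 and -0.087. The genotype by novelty interaction averaged over drug was -0.10 ± 0.23 and was not called. Without the 3 arrays it was 0.024, also in the fit without a block. No array lay far from the others in the 2 control groups, the only groups of 4 or more arrays, for Crebbp, Ep300 or the difference between them.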

How the results depend on the processing

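No call of either gene by genotype, TSA or novelty was gained or lost, other than with array set as a block and 1 array left out (below), but small uncalled differences changed sign, and the causes were not tested. With array quality weights, the TSA average became 0.036 (Crebbp) and 0.077 (Ep300), TSA in cbp+/- with novelty 0.087 and 0.015, TSA by novelty for Crebbp -0.040 (-0.0095 with a replicate block), and for Ep300 TSA in the wild-type cage 0.15, genotype in controls -0.032, genotype after novelty 0.040, novelty in wild type with TSA -0.16 and genotype by novelty 0.089. With quantile normalization repeated, TSA in wild type with novelty was 0.0039 for Crebbp and genotype after novelty 0.045 for Ep300. Novelty without TSA for Crebbp in wild type was -0.039 with array set as a block and -0.026 with vehicle controls only (block or not), and -0.013 in cbp+/- with vehicle controls only. Without the 3 arrays with raised choroid plexus markers, novelty in cbp+/- with TSA was 0.043 (Crebbp) and 0.12 (Ep300), genotype by novelty 0.024 and 0.16, and for Ep300 genotype in controls -0.037 and novelty in wild type with TSA -0.17. Those fits had no block, so leaving out arrays changed the share of each set in a group. For novelty in cbp+/- with TSA, the pairs left in sets 3 and 4 were -0.085 and -0.087 (Crebbp) and -0.052 and -0.090 (Ep300).

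With the replicate block the genotype average of Crebbp was 0.21 ± 0.08 (adjusted p = 0.89 in limma) and that of Ep300 0.10 ± 0.10. That block called vehicle against naive for Crebbp (0.74, adjusted p = 0.000219) and Ep300 (0.98, adjusted p = 4.52e-06); naive controls have numbers 1 and 2 and vehicle controls 3 to 5, so by construction it rests on number differences in the other groups. The within-array genotype difference was 0.097 without the naive arrays.

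The next ranges, with 1 array left out, are from the fit without a block. In it, leaving out 1 array changes the share of each array set in its group. The genotype average ran from 0.15 to 0.27 for Crebbp and from 0.028 (without wild-type novelty replicate 3) to 0.17 for Ep300, genotype after TSA in the cage from 0.21 to 0.65 and 0.040 to 0.49, and genotype in controls for Crebbp from 0.018 to 0.17. For Crebbp and then Ep300 the ranges that crossed 0 were: TSA average -0.094 to 0.027 and -0.091 to 0.049; TSA in the wild-type cage -0.36 to 0.013 and -0.17 to 0.15, in the cbp+/- cage -0.0022 to 0.34 and -0.0088 to 0.42, in wild type with novelty -0.29 to 0.19 and -0.47 to 0.075, in cbp+/- with novelty -0.14 to 0.23 and -0.21 to 0.25; genotype after novelty -0.098 to 0.35 and -0.30 to 0.22, after novelty with TSA -0.051 to 0.42 and -0.10 to 0.42; novelty with TSA in wild type -0.041 to 0.40 and -0.17 to 0.29, in cbp+/- -0.30 to 0.16 and -0.31 to 0.21; novelty without TSA in wild type -0.19 to 0.26 and -0.061 to 0.45; genotype by novelty -0.23 to 0.017 and -0.21 to 0.072. For Crebbp alone they were novelty average -0.019 to 0.10, novelty without TSA in cbp+/- -0.021 to 0.14 and TSA by novelty -0.11 to 0.14, and for Ep300 alone genotype in controls -0.074 to 0.10. With the block, chosen after seeing the data, some of these ranges kept 1 sign. For Crebbp these included TSA in the wild-type cage (-0.31 to -0.21) and genotype after novelty with TSA (0.12 to 0.24). Novelty with TSA in wild type (0.11 to 0.23) and in cbp+/- (-0.14 to -0.013) did so too. Others still crossed 0, among them genotype after novelty for Crebbp (-0.023 to 0.29) and Ep300 (-0.16 to 0.10). The within-array difference ran from 0.092 to 0.13. With array set as a block and 1 array left out, chosen after seeing the data, the adjusted p of the Crebbp genotype average ran from 0.0196 to 0.152.

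Genes called numbered 0 by genotype without a block, 132 with array set as a block, 88 with vehicle controls only and that block, 8 with array weights and 2 with quantile normalization. They numbered 132 by TSA, and 899, 730, 461 in the first 3 of these, 567 with a replicate block, 48 with vehicle controls only, 69 without dim genes and 87 without choroid arrays. They numbered 38 by novelty, and 95, 89 and 73, 74 with a replicate block and 23 with vehicle controls only. With 1 array left out they ran by TSA from 81 to 150 (81 without cbp+/- cage TSA replicate 2, 83 and 84 without cbp+/- replicate 1 and wild-type replicate 2 of novelty with TSA, 85 without cbp+/- novelty replicate 3, 87 without cbp+/- control replicate 1), by novelty from 28 to 40 and by genotype from 0 to 1. No other cluster carries either symbol, so that alternative was not run, and vehicle against naive could not be fitted with array set as a block.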
